A study of Homo sapiens with 15 samples.

Results

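The response of HepG2 cells to concentration was read from 12 of the 15 libraries of the series: 6 from the high concentrations against 6 from the low concentrations, over 2 compounds. The high groups were tris(2-chloroethyl) phosphate (TCEP) at 250 µM and tris(2-chloroisopropyl) phosphate (TCIPP) at 25 µM. The low groups were TCEP at 25 µM and TCIPP at 2.5 µM. Each group had 3 libraries, and 3 libraries of cells given only the solvent dimethyl sulfoxide (DMSO, 0.1%) supplied the reference level. Exposure lasted 72 h in every group. The step from low to high was 10-fold for each compound, but the absolute concentrations differed between the compounds. Libraries were placed in groups by their treatment and concentration labels, and no measured value entered that choice. HepG2 is an established hepatocellular carcinoma line, so all groups represent 1 transformed cell line, and the labels do not say how much DMSO the treated cultures held. The labels report separate seeding, treatment and RNA extraction for the cultures of a triplicate.

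TCEP and TCIPP are chlorinated organophosphates used as flame retardants, and hepatocytes are a main site of their metabolism. Liver cells answer chemical and nutrient stress through a few well described transcription programmes. ATF4 is translated when the integrated stress response slows protein synthesis, and it drives amino acid synthesis, amino acid transport and tRNA charging. HIF transcription factors drive glycolysis and growth factor genes at low oxygen, NRF2 drives enzymes that detoxify reactive molecules, and the nuclear receptor FXR, encoded by NR1H4, senses bile acids.

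Library depth spanned 5.35 to 26.8 M (megareads) of exon reads. The high libraries averaged 9.69 M and the low libraries 12.5 M, and the TCEP 250 µM replicate 3 library, with 21.0 M, stood apart from the other high libraries. Replicate 3 was also the deepest library of TCEP 25 µM (14.7 M), TCIPP 2.5 µM (26.8 M) and DMSO (21.4 M). In TCIPP 25 µM it had 8.89 M, beside 8.91 M in replicate 1. Of 31 hepatocyte markers, TDO2 alone had 0 reads in all libraries, and their summed level was 53495 to 62263 CPM in the high libraries, 55432 to 58620 CPM in the low libraries and 57230 to 64149 CPM in DMSO. CPM is the exon reads of a gene per megaread of exon reads in its library. For the levels of single genes the library size was scaled by TMM factors. For the summed markers and for the worth of 3 reads it was left unscaled. Of 14 fibroblast and stellate cell markers, 5 (COL1A2, DCN, LUM, THY1 and POSTN) had 0 reads in every library, and the list summed to 50.6 to 68.6 CPM at the high and 53.04 to 66.6 CPM at the low concentrations. Of its 5 tested members, 1 was called higher and 2 lower, against 6.50% and 7.67% of all genes. Of 11 endothelial markers 7 were under 1 CPM, and their sum was 4.35 to 8.598 CPM at the high, 6.18 to 13.04 CPM at the low concentrations and 6.70 to 9.11 CPM in DMSO. Of the 5 endothelial markers tested, 2 were called lower, against 7.67% of all genes, with a median log2 fold change of -0.64. Of 16 macrophage and leukocyte markers, 11 were under 1 CPM, and MS4A1 and TYROBP had 0 reads in every library. The list summed to 4388 to 4842 CPM at the high and 4031 to 4797 CPM at the low concentrations, nearly all of it from LYZ. Of its 5 tested members, 1 was called lower, and the median was -0.30. The 12 cholangiocyte and progenitor markers summed to 1593 to 1934.5 CPM at the high and 1570.6 to 1860.5 CPM at the low concentrations. Their sum in DMSO, 2045.6 to 2451.5 CPM, lay above every treated library. Of the 8 tested, 2 were called higher and 3 lower, and 0 and 1 without replicate number in the model. The part of these markers in the gene results was not tested. The mitochondrially encoded share of exon reads was 6.82% ± 0.318 (SD, n = 6) at the high concentrations, 6.10% ± 0.313 (SD, n = 6) at the low and 7.0% ± 0.709 (SD, n = 3) in DMSO. Reads in introns made up 8.75% ± 0.439 (SD, n = 6), 8.17% ± 0.372 (SD, n = 6) and 8.90% ± 0.211 (SD, n = 3) of gene reads in the same order. Both shares were higher at the high concentration in 5 of 6 pairs, a pair being the high and low library of 1 compound with the same replicate number. The exact two-sided permutation test over the 6 pairs gave p = 0.0625 for each share, where 0.03125 is the smallest p it can give. Both shares therefore moved with the level of most pairs, and their part in the gene results below was not tested.

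**Figure D1:**
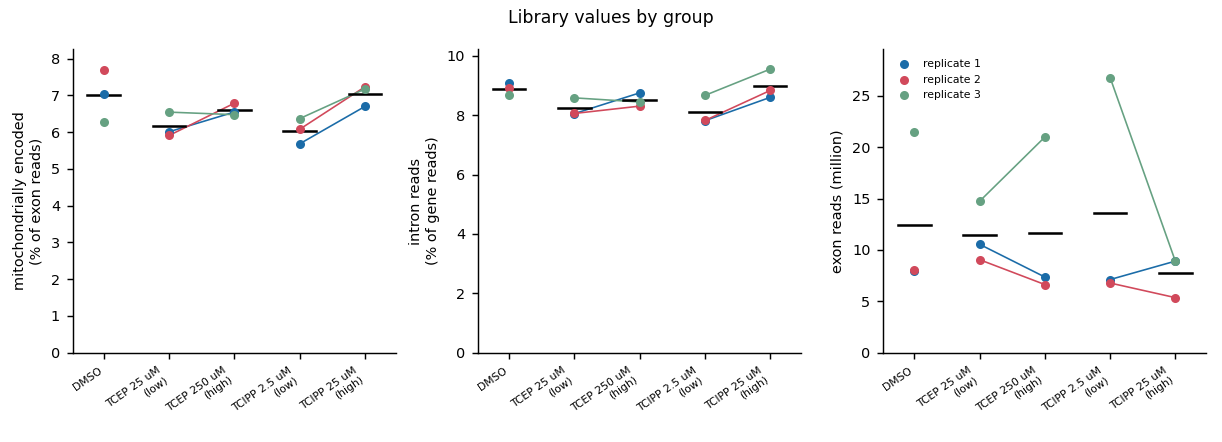
Mitochondrially encoded share of exon reads (%), intron share of gene reads (%) and exon reads (megareads, M) of each library, by group. Points are libraries coloured by replicate number, lines join the low and high library of a pair, and black bars are group means (n = 3). Both shares were higher at the high concentration in 5 of 6 pairs, and read depth ran from 5.35 to 26.8 M.

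Raising the concentration shifted a broad set of genes by small amounts. Of 12510 genes tested, 1772 (14.2%) differed between the high and low concentrations at an adjusted p under 0.05 in edgeR's quasi-likelihood test with Benjamini-Hochberg adjustment, with compound and replicate number in the model. Among these, 813 (6.50%) were higher and 959 (7.67%) were lower at the high concentrations. With library totals in place of TMM scaling the balance turned, to 992 higher and 806 lower, and the median log2 fold change of all genes moved from 0.0022 to 0.016. The median log2 fold change was 0.20 among the higher genes and -0.23 among the lower genes, and only 52 and 84 of them passed a 1.5-fold difference. Among the called genes, 641 of the 813 were higher in 6 of 6 pairs and 806 of the 959 were lower in 6 of 6, against 8.64% and 9.53% of all genes tested. Complete separation, with all 6 high libraries on 1 side of all 6 low libraries, was found in 80 higher and 101 lower called genes, against 0.687% and 0.815% of all genes. The called genes were chosen by a test on the same libraries, which by itself raises the counts of agreeing pairs and of complete separation. Protein coding genes made up 96.1% of the higher, 97.0% of the lower and 92.2% of all genes tested. The called genes were also more abundant, with a median of 56.5 CPM for the higher, 58.7 CPM for the lower and 24.3 CPM for all genes tested. The count depended on the replicate number: with that term left out, 189 genes (1.51%) were called, all of them among the 1772.

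All 813 higher and all 959 lower genes had the same sign in the TCEP step and in the TCIPP step. The test averages both steps, which fixes part of this. The median step of the higher genes was 0.19 in TCEP and 0.22 in TCIPP on the log2 scale, and that of the lower genes was -0.21 and -0.25. Taken alone, the TCEP step from 25 to 250 µM called 555 genes (4.44%) and the TCIPP step from 2.5 to 25 µM called 948 (7.58%), with 364 genes in both.

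**Figure D2:**
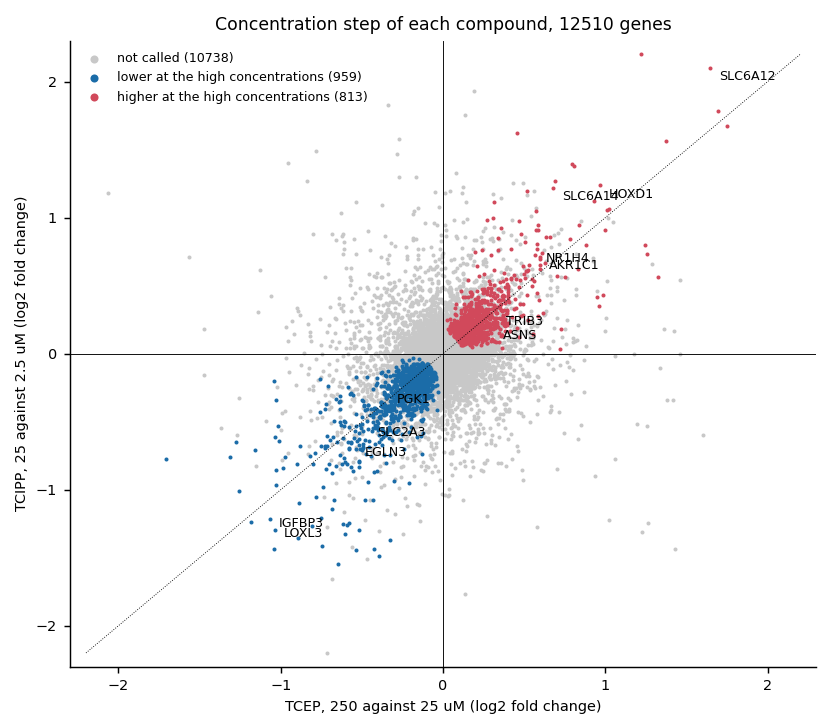
Log2 fold change of each of the 12510 genes in TCEP (250 against 25 µM, horizontal axis) and in TCIPP (25 against 2.5 µM, vertical axis). Red and blue points are the 813 genes called higher and the 959 called lower in the joint test, the dotted line marks equal steps, and values past 2.2 are drawn at that limit. The called genes lie in the 2 quadrants where both steps have the same sign.

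Genes of the ATF4 amino acid response rose with concentration to a level above DMSO. Of 51 tested members, 34 rose, against 6.50% of all genes, and 1 fell, PPP1R15A, which was named after its values were seen. PPP1R15A encodes the phosphatase subunit that ends the stress response. Its call was lost without the replicate term and without replicate 2 or 3. The fit of all 15 libraries and the fit with read depth as a covariate did not call it either. The median log2 fold change of the list was 0.20, beside 0.0022 over all genes, and 19 members were also called higher without the replicate term. TRIB3 (chr20:361261-378203, hg19) encodes a pseudokinase that feeds back on ATF4. It had 154, 146 and 167 CPM in replicates 1, 2 and 3 of TCEP 25 µM and 206, 189 and 196 CPM at 250 µM. In TCIPP it went from 176, 166 and 172 CPM at 2.5 µM to 217, 197 and 219 CPM at 25 µM, and the DMSO libraries had 143, 177 and 150 CPM. All 6 high libraries lay above all 6 low libraries, and the DMSO values overlapped the low ones. The log2 fold change was 0.32 ± 0.031 (SE, adjusted p = 1.77e-06).

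GARS, the glycyl-tRNA synthetase, had a lowest, median and highest value of 303, 324 and 341 CPM at the high concentrations and 247, 263 and 271 CPM at the low, with 253 to 278 CPM in DMSO. Its high and low libraries did not overlap, and it rose by 0.30 ± 0.028 on the log2 scale (SE, adjusted p = 1.39e-06). The tyrosyl-tRNA synthetase YARS rose by 0.30 ± 0.038 (adjusted p = 3.77e-05). PSAT1, an enzyme of serine synthesis, averaged 374 ± 22.2 CPM (SD, n = 6) against 290 ± 34.8 CPM (SD, n = 6), with 296 ± 5.37 CPM in DMSO (SD, n = 3). The translation repressor gene EIF4EBP1 averaged 75.4 ± 5.35 against 59.4 ± 2.27 CPM (SD, n = 6 each), and DMSO had 62.9 ± 7.61 CPM (SD, n = 3). In both genes the low concentrations sat at the DMSO level within the spread of the libraries. ASNS, asparagine synthetase, averaged 137 ± 7.75 CPM at the high and 114 ± 6.85 CPM at the low concentrations (SD, n = 6 each), above the 100.2 ± 8.61 CPM of DMSO (SD, n = 3). SESN2, a stress inducible regulator of mTORC1, was higher in 6 of 6 pairs, by 0.40 ± 0.074 on the log2 scale (adjusted p = 0.00114). DDIT3, the transcription factor CHOP, had 15.4 ± 1.8 against 12.03 ± 1.49 CPM (SD, n = 6 each), with 59.6% of its reads unique to it. Its call (adjusted p = 0.013) was lost without the replicate term and when replicate 1 or replicate 3 was left out of all groups.

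Against DMSO, the median of the ATF4 list was 0.22 on the log2 scale at the high concentrations and 0.045 at the low ones. DMSO lay nearer the low than the high level in all but 12 of its 51 genes, whereas it lay nearer the high level in 61.5% of all genes tested. Genes of the unfolded protein response, which share the upstream kinase PERK with the ATF4 response, showed a smaller step, with a median of 0.085. Of 33 tested, 10 rose and 1 fell, against 6.50% and 7.67% of all genes. Without the replicate term, 2 were called higher and 0 lower, and the fit of all 15 libraries called 5 higher. The 10 became 4 to 6 on leaving out replicate 1, replicate 2 or any of 6 single libraries (the 3 of TCEP 250 µM, TCEP 25 µM replicates 1 and 2, and TCIPP 2.5 µM replicate 3). HERPUD1, a component of endoplasmic reticulum associated degradation, rose by 0.19 ± 0.033 (adjusted p = 0.000534). HSP90B1, the endoplasmic reticulum chaperone GRP94, was the member that fell, by 0.20 on the log2 scale. HSPA5, the chaperone BiP, was not called, with 1707 ± 173 CPM against 1599 ± 37.5 CPM (SD, n = 6 each, adjusted p = 0.224).

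The promoters of the ATF4 genes are shown because the composite element bound by ATF4 with C/EBP proteins (TGATG, then any base, then AA, on either strand) can be searched in them. RefSeq windows of 250 bases before to 50 after the gene start (GRCh38.p14) were found for 27 of the 34 members that rose. Of these, 8 (29.6%) held the element, against 11 of 41 (26.8%) over all tested members of the list, called or not. The element was in 1.72% of the windows of genes tested, 3.88% of those called higher, 1.21% of those called lower and 3.67% of all 27305 windows. The 3 windows printed run from 150 bases before to 30 after the gene start, belong to the called members with the smallest p that hold the element there, and have it in capitals. They are MARS1 (chr12:57487918-57488097, plus strand), CARS1 (chr11:3057394-3057573, minus strand) and ASNS (chr7:97872379-97872558, minus strand). MARS and CARS, as the files name the methionyl- and cysteinyl-tRNA synthetase genes, rose by 0.27 and 0.30 on the log2 scale.
MARS1: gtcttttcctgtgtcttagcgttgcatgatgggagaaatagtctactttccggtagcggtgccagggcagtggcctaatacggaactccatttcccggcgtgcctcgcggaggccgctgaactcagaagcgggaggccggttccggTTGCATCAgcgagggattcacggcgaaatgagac
CARS1: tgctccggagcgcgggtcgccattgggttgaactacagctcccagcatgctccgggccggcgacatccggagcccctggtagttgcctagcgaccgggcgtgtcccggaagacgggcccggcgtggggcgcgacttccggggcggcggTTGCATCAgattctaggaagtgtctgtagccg
ASNS: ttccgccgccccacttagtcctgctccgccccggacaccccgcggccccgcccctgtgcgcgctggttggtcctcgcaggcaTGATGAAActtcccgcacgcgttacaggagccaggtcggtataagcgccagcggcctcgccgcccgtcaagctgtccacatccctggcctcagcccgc
The first 2 windows hold the element at the gene start, on the reverse strand, and the third holds it 68 bases before the start.

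Genes of the hypoxia response moved the other way and did so from a low-concentration level that stood above DMSO. Of 40 tested members, 28 fell, against 7.67% of all genes, and 1 rose, DDIT4. DDIT4, an mTORC1 inhibitor with 23.6% unique reads, was named after its values were seen. Its call was lost without the replicate term and in the fit of all 15 libraries. The list had a median log2 fold change of -0.21, and 7 members were also called lower without the replicate term. IGFBP3 (chr7:45951949-45961473, hg19), a binding protein that carries insulin-like growth factors, had the smallest p of all genes tested. In TCEP it went from 84.0, 174 and 104 CPM in replicates 1, 2 and 3 at 25 µM to 36.6, 81.5 and 53.03 CPM at 250 µM. In TCIPP it went from 80.2, 175 and 109 CPM at 2.5 µM to 36.8, 86.9 and 38.0 CPM at 25 µM. The DMSO libraries had 30.4, 66.9 and 37.6 CPM. Replicate 2 was the highest in every group, so the high and low libraries overlapped across replicates but all 6 pairs fell. The change was -1.14 ± 0.057 on the log2 scale (SE, adjusted p = 1.39e-09), a 2.2-fold lower level at the high concentrations.

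EGLN3, an oxygen sensing prolyl hydroxylase that HIF induces, had 37.7, 47.6 and 53.8 CPM as its lowest, median and highest value at the high concentrations and 58.9, 69.8 and 89.7 CPM at the low. Its DMSO libraries had 45.8 to 54.6 CPM, overlapping the high range and below every low library, and it fell by 0.61 ± 0.046 (adjusted p = 1.67e-07). CA9, a membrane carbonic anhydrase, had 42.8, 56.8 and 63.6 CPM against 67.7, 81.6 and 96.6 CPM, without overlap, and 47.1 to 66.5 CPM in DMSO. The glucose transporter gene SLC2A3 fell from 1240 ± 204 to 878 ± 172 CPM (SD, n = 6 each), and DMSO had 758 ± 92.5 CPM (SD, n = 3). ERO1L, an oxidase of the endoplasmic reticulum, fell by 0.42 ± 0.031 (adjusted p = 1.65e-07). VEGFA, the vascular growth factor, fell by 0.21 ± 0.042 (adjusted p = 0.00214). Its DMSO libraries had 274.5 to 294 CPM, overlapping the high range of 288 to 396 CPM and below every low library.

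HIF also controls glycolysis genes, and 4 of them were on both lists. Of 28 tested, 18 fell and 0 rose, against 7.67% and 6.50% of all genes, with a median of -0.16. When replicate 2 was left out of all groups, 11 fell. Without the replicate term, 4 were called lower. PGK1, phosphoglycerate kinase, had 967, 1074 and 1180 CPM as lowest, median and highest value at the high concentrations and 1238, 1297 and 1510 CPM at the low. The 3 DMSO libraries, at 1032 to 1101 CPM, lay inside the high range, and all 6 low libraries lay above it. The change in PGK1 was -0.33 ± 0.031 (adjusted p = 1.31e-06). HK2, hexokinase 2, fell by 0.34 ± 0.031 and ENO2, an enolase, by 0.31 ± 0.037 on the log2 scale (adjusted p = 9.17e-07 and 1.51e-05). Against DMSO, the median of the hypoxia list was 0.30 at the low and 0.063 at the high concentrations, and that of the glycolysis list was 0.17 and 0.012. DMSO lay nearer the high level in 34 of 40 hypoxia genes and 25 of 28 glycolysis genes.

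Promoter windows were matched for 20 of the 28 hypoxia genes that fell, and 16 of them (80%) held ACGTG or GCGTG, the core of the hypoxia response element, on either strand. Over all tested members of the list, called or not, 24 of 29 (82.8%) held it. This short core occurred in 48.4% of all windows, in 63.8% of the windows of genes tested and in 61.4% of those of genes called lower. The windows of IGFBP3 (chr7:45921243-45921422, minus strand, GRCh38.p14) and ERO1A, the current symbol of ERO1L (chr14:52695529-52695708, minus strand), are shown with the core in capitals, because these 2 list members had the smallest p among those with a core in the bases printed.
IGFBP3: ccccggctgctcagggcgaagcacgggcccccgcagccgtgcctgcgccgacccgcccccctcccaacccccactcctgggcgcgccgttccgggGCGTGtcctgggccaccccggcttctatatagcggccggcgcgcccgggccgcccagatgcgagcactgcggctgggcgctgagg
ERO1A: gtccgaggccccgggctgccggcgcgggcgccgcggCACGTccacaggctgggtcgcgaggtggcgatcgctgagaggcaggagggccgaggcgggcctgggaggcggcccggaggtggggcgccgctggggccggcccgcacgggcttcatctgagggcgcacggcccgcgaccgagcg
A match describes the letters only, and no binding was measured.

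The insulin and insulin-like growth factor list had a median of -0.064. In it, 5 of 18 genes fell, including IGFBP3 from the hypoxia list, and 0 rose, against 7.67% and 6.50% of all genes. The count was 2 without the replicate term and 3 without replicate 1 or 2. IGF2, a growth factor that HepG2 cells express at a high level, averaged 4332 ± 904 CPM at the high and 6384 ± 1632 CPM at the low concentrations (SD, n = 6 each), and 67.9% of its reads were unique. IGFBP2, another carrier protein, had 28.4, 33.8 and 36.6 CPM against 47.0, 49.3 and 52.4 CPM as lowest, median and highest value, without overlap. Its change was -0.56 ± 0.050 (adjusted p = 7.32e-07), and the DMSO libraries, at 23.4 to 52.0 CPM, spanned both ranges. IGFBP1, a further carrier protein and a known ATF4 and insulin target, did not pass the test between concentrations, with 2472 ± 209 against 2515 ± 200 CPM (SD, n = 6 each, adjusted p = 0.663). Both levels were above the 1859 ± 322 CPM of DMSO (SD, n = 3). The log2 difference from DMSO was 0.41 at the high and 0.44 at the low concentrations (edgeR adjusted p = 0.0067 and 0.00028). These p-values come from the fit with the replicate term, although the DMSO libraries were not shown to be paired with the treated ones.

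**Figure D3:**
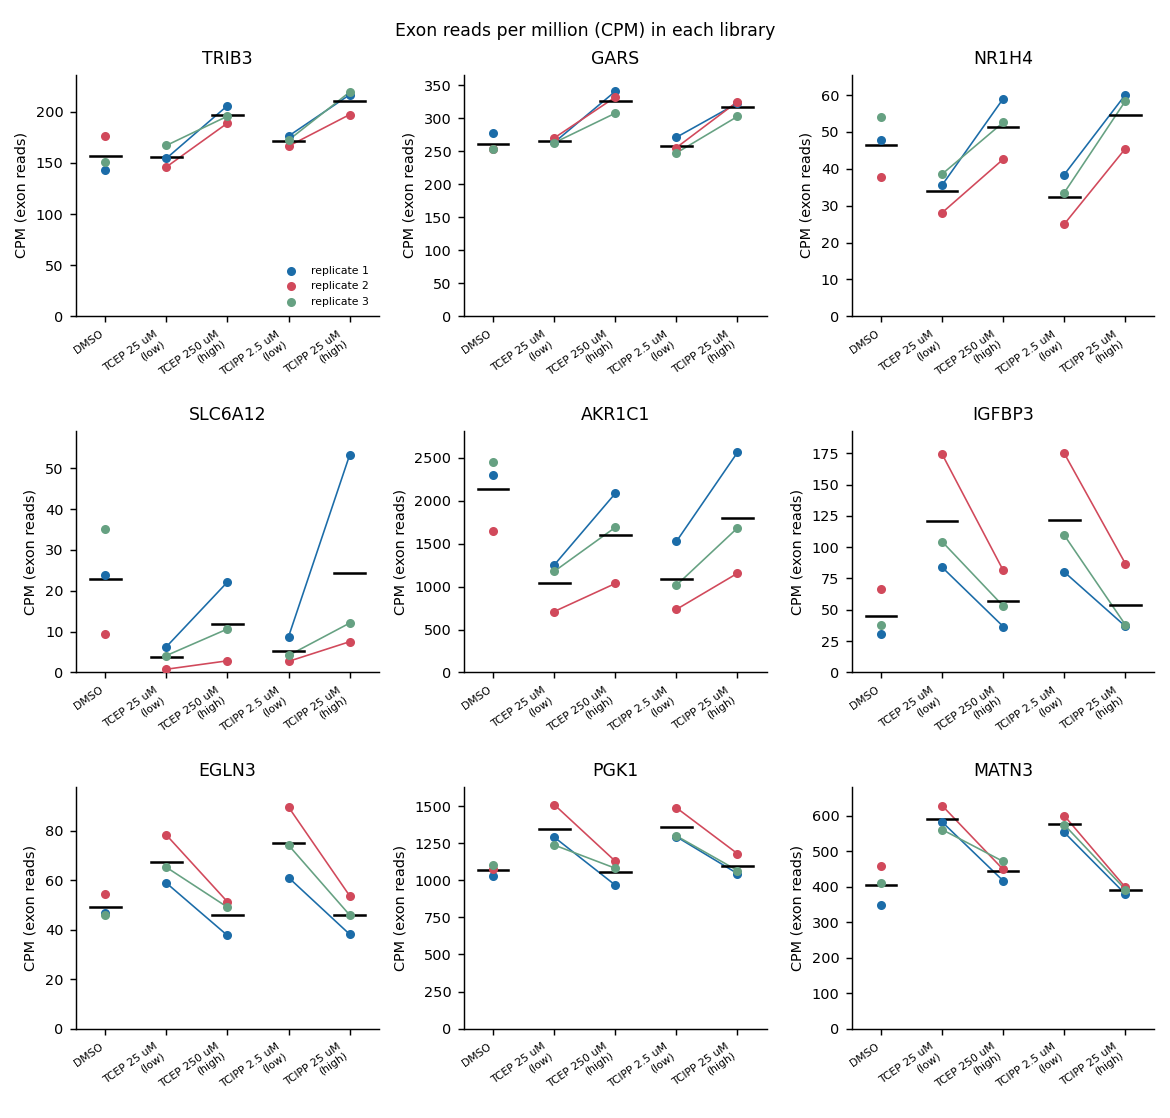
CPM (exon reads) of 9 genes in each library, by group. Points are libraries coloured by replicate number, lines join the low and high library of a pair, and black bars are group means (n = 3). TRIB3 and GARS rose above a low level that overlapped DMSO, whereas IGFBP3, EGLN3, PGK1 and MATN3 fell from a low-concentration level above the DMSO mean to one that overlapped the DMSO libraries.

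NRF2 target genes rose with concentration, but from a low level that lay below DMSO. Of 40 tested members, 21 rose and 1 fell, against 6.50% and 7.67% of all genes. The median was 0.14, and 3 were called higher when the replicate term was left out. AKR1C1 (chr10:4934796-5025475, hg19), an aldo-keto reductase of steroid and aldehyde metabolism, had 1037, 1688 and 2565 CPM as lowest, median and highest value at the high concentrations. At the low concentrations it had 710, 1097 and 1527 CPM, and in DMSO 1651 to 2456 CPM. High and low libraries overlapped, but the gene was higher in 6 of 6 pairs, by 0.66 ± 0.051 on the log2 scale (adjusted p = 2.04e-07). Of its reads, 72.2% were unique, since it has near-identical relatives. AKR1C2, such a relative with 62.0% unique reads, rose by 0.57 ± 0.046, and AKR1B10, another aldo-keto reductase with 98.1% unique reads, rose by 0.48 ± 0.040 (adjusted p = 3.03e-07 and 4.14e-07). AKR1B10 averaged 412 ± 84.4 CPM at the high and 292 ± 40.5 CPM at the low concentrations (SD, n = 6 each), and 464 ± 97.3 CPM in DMSO (SD, n = 3). NQO1, the quinone reductase, rose by 0.18 ± 0.029 (adjusted p = 0.000337).

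HMOX1, haem oxygenase, was the NRF2 target that fell. It had 29.1, 31.2 and 38.1 CPM as lowest, median and highest value at the high concentrations, 39.0, 43.6 and 55.0 CPM at the low, and 30.03 to 34.5 CPM in DMSO. The ranges of the high and low libraries did not overlap, and the change was -0.46 ± 0.060 (adjusted p = 3.63e-05). Against DMSO, the NRF2 list had a median of -0.0062 at the high and -0.12 at the low concentrations. DMSO lay nearer the high level in 30 of the 40.

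In bile acid synthesis and FXR signalling, 5 of 17 genes rose and 3 fell, against 6.50% and 7.67% of all genes, with a median of 0.048. The counts were 2 and 0 without the replicate term and 3 and 1 without replicate 3. NR1H4 (chr12:100867486-100958191, hg19), the gene of FXR, had 59.0, 42.6 and 52.6 CPM in TCEP 250 µM against 35.6, 28.1 and 38.6 CPM in TCEP 25 µM. It had 60.1, 45.5 and 58.4 CPM in TCIPP 25 µM against 38.5, 25.0 and 33.5 CPM in TCIPP 2.5 µM, and 47.7, 37.8 and 54.1 CPM in DMSO. All 6 high libraries were above all 6 low ones, and the log2 fold change was 0.67 ± 0.052 (adjusted p = 2.04e-07). SLC51B, the beta subunit of the bile acid exporter OST, rose from 7.91 ± 1.46 to 12.7 ± 2.24 CPM (SD, n = 6 each), above the 8.55 ± 1.02 CPM of DMSO (SD, n = 3). SLC51A, the alpha subunit, fell by 0.87 ± 0.142 (adjusted p = 0.000377), with 77.6% unique reads. KLB, the co-receptor of the endocrine factor FGF19, rose by 0.45 ± 0.060 (adjusted p = 4.77e-05).

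Of 18 tested cytochrome P450 genes, 5 rose and 3 fell, against 6.50% and 7.67% of all genes. The counts were 1 and 0 without the replicate term and 3 and 1 without replicate 1, replicate 2 or TCIPP 2.5 µM replicate 3. The 3 that fell became 1 without any of 6 further libraries (TCEP 250 µM replicates 2 and 3, TCEP 25 µM replicate 1, TCIPP 25 µM replicates 1 and 2, and TCIPP 2.5 µM replicate 2). CYP3A7, the fetal liver form of the CYP3A family, rose from 5.0 ± 1.24 to 8.28 ± 2.64 CPM (SD, n = 6 each), and DMSO had 8.75 ± 2.90 CPM (SD, n = 3). CYP1A1, the classical target of the aryl hydrocarbon receptor, was higher in 6 of 6 pairs, by 0.65 ± 0.163 (adjusted p = 0.012). Its call was lost without TCIPP 2.5 µM replicate 3, without replicate 1 and without the replicate term. EPHX1, microsomal epoxide hydrolase, rose by 0.38 ± 0.050 (adjusted p = 4.79e-05), from a low mean of 59.4 CPM to 77.0 CPM, with 87.9 CPM in DMSO.

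Among 29 cholesterol synthesis genes, 10 rose and 1 fell, against 6.50% and 7.67% of all genes, with a median of 0.082. The 10 became 2 without the replicate term, 5 without replicate 1 or 2, and 6 without replicate 3 or in the fit of all 15 libraries. FDPS, farnesyl diphosphate synthase, had 145 ± 6.96 against 127 ± 4.14 CPM, and SQLE, squalene epoxidase, 264 ± 9.27 against 234 ± 6.85 CPM (SD, n = 6 each). Neither overlapped between high and low libraries. Fatty acid oxidation and PPAR alpha targets went the other way, with 11 of 35 lower, 2 higher and a median of -0.049. CPT1A, which admits fatty acids to mitochondria, fell by 0.37 ± 0.042 (adjusted p = 9.68e-06), and VNN1, a pantetheinase induced by PPAR alpha, by 0.68 ± 0.096 (adjusted p = 9.23e-05). The 11 became 5 to 7 on leaving out any replicate number, TCEP 250 µM replicate 3, TCEP 25 µM replicate 1 or TCIPP 2.5 µM replicate 3, and to 0 without the replicate term. Of 30 fatty acid and triglyceride synthesis genes, 6 rose and 2 fell, against 6.50% and 7.67% of all genes, with a median of 0.046. Without the replicate term these counts were 1 and 0. GPAM, the first acyltransferase of triglyceride synthesis, rose by 0.40 ± 0.042 (adjusted p = 3.71e-06).

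Cytosolic ribosomal protein genes fell together by a small amount. Of 79 tested, 47 fell and 0 rose, against 7.67% and 6.50% of all genes. A negative log2 fold change was found in 78, and the median was -0.11. RPS18, with 87.3% unique reads, averaged 1355 ± 131 CPM at the high and 1610 ± 195 CPM at the low concentrations (SD, n = 6 each), and 1297 ± 61.3 CPM in DMSO (SD, n = 3). RPL26, a large subunit protein gene with 51.3% unique reads, fell by 0.23 ± 0.034 (adjusted p = 0.000112). The count was 1 without the replicate term, 31 without TCEP 250 µM replicate 2, 15 without replicate 1, 17 without replicate 2 and 27 with read depth as a further covariate. Many of these genes have processed pseudogenes, which can share their reads. The list stood at 0.14 above DMSO at the low and 0.025 at the high concentrations, as medians on the log2 scale, and DMSO lay nearer the high level in 74 of 79.

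All 13 mitochondrially encoded genes had a positive log2 fold change, as did 50.7% of all genes tested, with a median of 0.18. Of the 13, 10 were called higher, against 6.50% of all genes. MT-ND1, a subunit of respiratory complex I, averaged 2572 ± 160 CPM at the high and 2209 ± 187 CPM at the low concentrations (SD, n = 6 each), and 2452 ± 350 CPM in DMSO (SD, n = 3). MT-ATP8, a subunit of ATP synthase, rose by 0.28 ± 0.052 and was higher in 5 of 6 pairs (adjusted p = 0.00145). Its call and that of MT-ND4, a further complex I subunit, were lost without replicate 2. Without replicate 2 in all groups 3 of the 13 were called, and without the replicate term 0 were. These genes are the mitochondrial share given above, which was higher in 5 of 6 pairs. Nuclear genes of oxidative phosphorylation did not share the step: 2 of 79 rose and 5 fell, against 6.50% and 7.67% of all genes. Their median was -0.025.

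In coagulation and fibrinolysis, 12 of 26 genes fell and 1 rose, against 7.67% and 6.50% of all genes, with a median of -0.097, and 2 fell without the replicate term. F10, coagulation factor X, fell by 0.29 ± 0.036 and FGG, the fibrinogen gamma chain, by 0.26 ± 0.035 (adjusted p = 2.02e-05 and 5.95e-05). Among apolipoproteins and lipoprotein handling genes, 12 of 27 fell and 2 rose, with a median of -0.12 and 3 called lower without the replicate term. APOL1, a lipoprotein component, fell by 0.36 ± 0.030, and MTTP, which loads lipid onto apolipoprotein B, by 0.33 ± 0.035 (adjusted p = 4.89e-07 and 3.8e-06). SCARB1, the receptor for high density lipoprotein, fell by 0.30 ± 0.034 (adjusted p = 8.55e-06). AHSG, the plasma glycoprotein fetuin A, had 4740, 4845 and 5107 CPM at the high and 5577, 5980 and 6672 CPM at the low concentrations, without overlap. A2M, the protease inhibitor alpha-2-macroglobulin and a member of the acute phase list, rose by 0.41 ± 0.045 (adjusted p = 5.85e-06). In that list of complement and acute phase genes, 12 of 34 fell and 6 rose, against 7.67% and 6.50% of all genes. Without the replicate term 0 did in either direction, the 12 became 6 without replicate 2, and the 6 became 3 without replicate 1, replicate 3 or any of 4 libraries (replicate 1 of TCEP 25 µM, TCIPP 25 µM and TCIPP 2.5 µM, and replicate 3 of TCIPP 2.5 µM).

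ALB, serum albumin, rose by 0.14 ± 0.036 (adjusted p = 0.0117) in 5 of 6 pairs, from 16768 ± 1772 to 18548 ± 2448 CPM (SD, n = 6 each). DMSO was higher than both, at 21802 ± 3564 CPM (SD, n = 3). The albumin call was lost without the replicate term, without replicate 1, without TCIPP 2.5 µM replicate 3 and in the fit of all 15 libraries. AFP, alpha-fetoprotein, was not called (adjusted p = 0.107). Over the hepatocyte identity list, 5 of 28 rose and 7 fell, against 6.50% and 7.67% of all genes, and the median was -0.0030. The 5 became 3 without replicate 1 or TCIPP 2.5 µM replicate 3, the 7 became 3 without replicate 2, and each became 1 without the replicate term.

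Of 27 matrix and contractile genes, 14 fell and 2 rose, against 7.67% and 6.50% of all genes. The median was -0.18, with 4 called lower without the replicate term and 9 without replicate 1. MATN3, a matrix adaptor protein with 66.1% unique reads, had 380, 408 and 472 CPM at the high and 554, 579 and 629 CPM at the low concentrations. The 2 ranges were separate, DMSO had 348 to 459 CPM, and the change was -0.48 ± 0.037 (adjusted p = 1.76e-07). EDN1, the vasoconstrictor endothelin 1, had 16.8, 20.8 and 24.1 CPM against 27.9, 32.1 and 33.6 CPM, again without overlap. LOX and LOXL3, enzymes that cross-link collagen, fell by 0.34 ± 0.032 and 1.15 ± 0.106 (adjusted p = 1.11e-06 and 1.01e-06), with 57.9% and 79.5% unique reads. CYR61, a matricellular target of the YAP coactivator, fell by 0.69 ± 0.062 (adjusted p = 8.6e-07). FHL2, a LIM domain coactivator, averaged 69.2 ± 9.41 CPM at the high and 93.5 ± 7.74 CPM at the low concentrations (SD, n = 6 each), and both means lay above the 56.2 ± 6.16 CPM of DMSO (SD, n = 3).

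In metal handling, 8 of 19 genes fell and 4 rose, against 7.67% and 6.50% of all genes. The counts were 1 and 0 without the replicate term. The zinc and iron importer gene SLC39A14 rose by 0.44 ± 0.045 (adjusted p = 3.2e-06), and the zinc exporter gene SLC30A1 by 0.33 ± 0.044 (adjusted p = 5.95e-05). The iron exporter gene SLC40A1 had 77.8, 91.0 and 105 CPM at the high and 107, 118 and 137 CPM at the low concentrations, with 89.8 to 97.6 CPM in DMSO. It fell by 0.39 ± 0.047 (adjusted p = 1.53e-05).

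Transporters, receptors and transcription factors were among the 15 genes per direction with the largest fold change above 1 CPM. SLC6A12, a betaine and GABA transporter, had 2.85, 11.4 and 53.2 CPM at the high and 0.787, 4.15 and 8.74 CPM at the low concentrations as lowest, median and highest value. The libraries spread widely and overlapped, but all 6 pairs rose, by 1.90 ± 0.177 on the log2 scale (adjusted p = 1.11e-06), and DMSO had 9.41 to 35.2 CPM. SLC6A14, an amino acid transporter, rose by 0.95 ± 0.090, and HOXD1, a homeobox transcription factor, by 1.11 ± 0.079 (adjusted p = 1.39e-06 and 1.14e-07). HOXD1 averaged 38.6 ± 16 CPM at the high and 18.0 ± 6.88 CPM at the low concentrations (SD, n = 6 each), and 41.0 ± 15.9 CPM in DMSO (SD, n = 3). GFI1, a transcriptional repressor, rose by 0.76 ± 0.096 and FCGBP, a mucin-like secreted protein, by 0.81 ± 0.080 (adjusted p = 2.76e-05 and 1.89e-06).

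Among the genes that fell most, SLC16A6, a monocarboxylate transporter of ketone export with 30.9% unique reads, averaged 17.7 ± 12.1 CPM at the high and 39.5 ± 24.3 CPM at the low concentrations (SD, n = 6 each). Both means exceeded the 8.53 ± 3.07 CPM of DMSO (SD, n = 3). GPR133, an adhesion receptor, fell by 0.91 ± 0.084 and PTAFR, the platelet activating factor receptor, by 0.99 ± 0.092 (adjusted p = 1.04e-06 and 1.15e-06). CETP, the cholesteryl ester transfer protein, had 0.989 ± 0.434 against 2.18 ± 0.762 CPM (SD, n = 6 each). Since 3 reads were worth between 0.112 and 0.560 CPM depending on the library, these CETP values rest on few reads. The call was lost without TCEP 25 µM replicate 1, with replicate 1 or 2 left out, in total gene reads, with read depth as a covariate and without the replicate term.

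The DMSO level separated these groups. Over the 1772 called genes, DMSO lay nearer the high level than the low level in 82.4%, counted on the log2 scale of group means, against 61.5% of all genes tested. The share was 78.2% of the higher and 86.0% of the lower genes. DMSO lay beyond the high level in 379 of the 813 higher genes, between the 2 levels in 376 and beyond the low level in 58. For the 959 lower genes these counts were 509, 416 and 34. The median difference from DMSO was 0.0093 at the high and -0.19 at the low concentrations for the higher genes, and 0.0085 and 0.23 for the lower genes. In the fit of all 15 libraries, 72 of 12567 genes (0.573%) were called for the high groups against DMSO and 1259 (10.0%) for the low groups. These 2 comparisons share the DMSO libraries. Without the replicate term they called 5 (0.0398%) and 132 (1.05%), and leaving out 1 DMSO library moved the first from 17 (without replicate 3) to 461 (without replicate 2) and the second to 731 (without replicate 3). Same-numbered DMSO and treated libraries were not shown to be paired, so both settings are given.

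**Figure D4:**
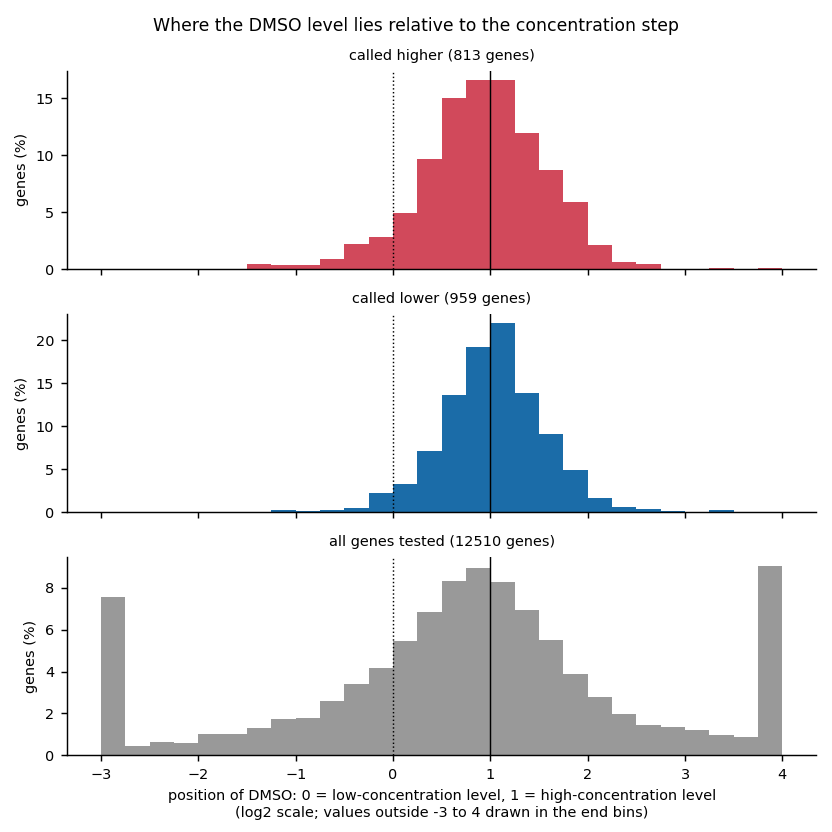
Position of the DMSO level on a scale where the low-concentration level is 0 and the high-concentration level is 1 (horizontal axis, log2 scale), as a percent of genes, for the genes called higher, those called lower and all genes tested. The dotted and solid lines mark the low and the high level. DMSO lay nearer the high level in 78.2% of the higher and 86.0% of the lower genes, against 61.5% of all.

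**Figure D5:**
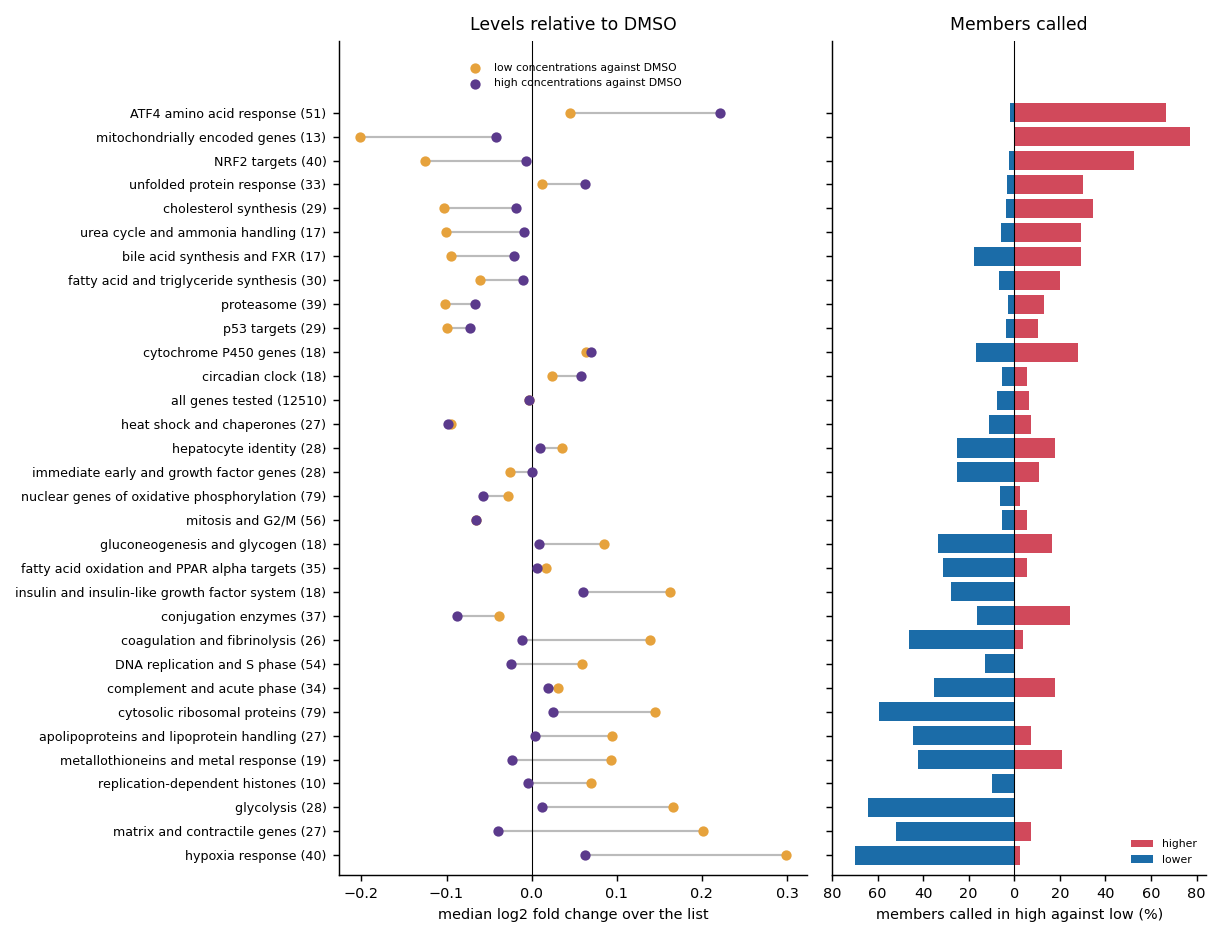
Left, median log2 fold change of each gene list with at least 10 tested genes, for the low (orange) and high (purple) concentrations against DMSO, with the number of genes tested in brackets. Right, percent of members called higher (red) or lower (blue) between high and low. The ATF4 list lay furthest above DMSO at the high concentrations (0.22), and the hypoxia list lay furthest above it at the low ones (0.30).

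In SPP1 and HSP90AA1 both concentrations averaged below DMSO. SPP1, osteopontin, averaged 1002 ± 135 CPM at the high, 920 ± 111 CPM at the low concentrations (SD, n = 6 each) and 1462 ± 216 CPM in DMSO (SD, n = 3). It rose by 0.12 ± 0.029 between concentrations (adjusted p = 0.00929), a call lost without the replicate term and without replicate 1 or 2. HSP90AA1, the inducible cytosolic chaperone, averaged 1217 ± 149 at the high, 1377 ± 142 at the low concentrations and 1574 ± 63.5 CPM in DMSO. It fell by 0.18 ± 0.042 (adjusted p = 0.00687), a call that was lost without replicate 1 and without the replicate term.

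The difference between the TCIPP step and the TCEP step was tested as an interaction. It called 0 of 12510 genes in edgeR's quasi-likelihood test, with 691 at an unadjusted p under 0.05, and 2 in DESeq2. A missed threshold does not show that the compounds act alike, and the median standard error of this difference over the called genes was 0.09, beside a median absolute difference of 0.08. The step was the larger in TCIPP in 64.7% of the 1772 genes. For IGFBP3 the TCEP step was -1.07 ± 0.077 and the TCIPP step -1.22 ± 0.081, a difference of -0.15 ± 0.113 (SE). For TRIB3 the steps were 0.33 ± 0.044 and 0.30 ± 0.044, a difference of -0.031 ± 0.062 (SE). Among the genes with the smallest interaction p was SLC6A14, with a step of 0.68 ± 0.092 in TCEP and 1.22 ± 0.093 in TCIPP (adjusted p of the difference 0.722). NOTUM, a secreted Wnt inhibitor, had steps of -0.14 ± 0.041 and -0.42 ± 0.042, and IFRD2, an interferon related developmental regulator, 0.41 ± 0.062 and -0.040 ± 0.065. The adjusted p of the difference was 0.453 for each. The concentrations compared differ between the compounds, so these values describe the chosen steps and not equal exposures.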

How the data were processed

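Gene counts came from 15 HepG2 libraries of poly-A selected, stranded RNA, read as pairs of 50 bp, per the labels' protocols. Mapping and counting were done by the authors in CLC Genomics Workbench (series' design text). The build was human hg19, also called GRCh37, per the submitters' processing notes. The deposited total exon reads are, per the file headers, whole-number counts per gene, and unique exon reads, total gene reads and intron reads stand beside them. The sources used here do not say how reads that fit several genes were assigned or whether counting used strand, so overlapping and antisense genes cannot be told apart.

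Total exon reads of the 12 treated libraries were scaled by TMM, filtered with filterByExpr and fitted with edgeR 4.0.16 (R 4.3.3; limma 3.58.1), by glmQLFit and glmQLFTest with level, compound and replicate number as terms. P-values were adjusted by the Benjamini-Hochberg method over all 12510 genes, and called means adjusted p under 0.05. The scripts were tested on simulated counts. The replicate term was used because, in the 12 treated libraries, deviations from the group means correlated at 0.13 to 0.34 in all 18 same-number pairs and at -0.26 to 0.036 in the other 36, and each library matched best with its own number. With DMSO the 12 same-number values were 0.016 to 0.16. DMSO contrasts came from 1 fit of all 15 libraries. DESeq2 1.42.0, limma-voom, other scalings, filters, read columns and left-out libraries were the alternatives. Counts of 3 reads correspond to 0.112 to 0.560 CPM, which covers counting error only.

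Genes named are the 15 per direction with the largest fold change (called, mean of at least 1 CPM, same sign in 6 of 6 pairs). Also named are up to 4 per gene list by smallest p, the genes of smallest interaction p and a fixed set. Of these, 90 were followed through the alternatives, and most of the 90 are described. MARS and CARS were added for their promoter windows, and PPP1R15A and DDIT4 as exceptions to the direction of their lists. None of these added genes was among the 90. The comparison, the 35 gene lists and the fixed set were chosen with earlier results of these data known. Promoter windows are RefSeq's, GRCh38.p14. A total of 27 gene names turned into dates were restored from their identifiers. Some genes are not reported here.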

Additional observations from a re-analysis of the deposited data

Results flagged for a closer look

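In the 6 high libraries, exon reads of TCEP 250 µM replicate 3 reached 21.0 M (megareads), far from the other 5, which had 5.35 to 8.91 M. For 3 genes a single high library lay apart from the other 5: TCEP 250 µM replicate 2 for HMOX1 at 38.1 CPM, TCIPP 25 µM replicate 3 for RPS18 at 1100 CPM, and TCIPP 25 µM replicate 2 for VEGFA at 396 CPM. The gap of each was set against the range of its 6 libraries (Dixon's test at the 95% level). Of 188 sets of 6 values checked, 4 had such a library, and chance alone flags about 1 in 20. HMOX1, RPS18 and VEGFA kept their calls without any single library.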

How the results depend on the processing

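Without the replicate block (replicate number as a term), the high against low comparison called 189 genes in place of 1772, the TCEP step 0 and the TCIPP step 3. The high, low and all treated groups against DMSO then called 5, 132 and 0, and 79.89% of the called genes had DMSO nearer the high level. A set of 90 named genes, most of them described here, was followed through the alternatives. Of its 84 called genes, 37 kept their call without the block and 74 with any single library or replicate number left out. None of the 90 changed direction under any alternative run. The joint count was 1145 in DESeq2, 1103 in the fit of all 15 libraries and 1176 with log2 read depth as a further covariate. It ran from 854 to 1768 over left-out libraries and replicate numbers (854, 925 and 1172 without replicate 1, 2 and 3), and TCIPP 2.5 µM replicate 3 was the single library that moved it most, to 1114. DESeq2 gave 2 genes for the difference between compounds, 356 for the TCEP step, 566 for the TCIPP step and 127 for the high groups against DMSO. Without a filter on low counts these were 53 for the difference between compounds, 846 for the TCEP step, 332 for the high groups and 871 for all treated groups against DMSO. Over left-out libraries, the difference between compounds called 0 to 2 genes, the TCEP step 210 to 727, the TCIPP step 429 to 994, the high groups against DMSO 17 to 461, the low groups 731 to 1511 and all treated groups 166 to 992. The share with DMSO nearer the high level was 85.24% in DESeq2, 79.52% without the filter, 86.40% in the fit of all 15 libraries and 79.29% to 85.36% over left-out libraries. Limma-voom, DESeq2's size factors, library totals, a minimum of 5 CPM, unique exon reads and total gene reads kept the joint count within 1.5 times.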

Other observations

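Of 54 DNA replication and S phase genes, 7 fell and 0 rose, against 7.67% and 6.50% of all genes, 42 had a negative log2 fold change and the median was -0.099. The 7 became 0 without the replicate term, 2 without replicate 1 or 3, 3 with library totals, and 3 or 4 without any of 7 libraries (replicates 1 and 3 of TCEP 250 µM, TCIPP 25 µM and TCIPP 2.5 µM, and replicate 1 of TCEP 25 µM). MCM5, a subunit of the replicative helicase, fell by 0.24 ± 0.045 and CCND1, cyclin D1 with 79.1% unique reads, by 0.15 ± 0.029 on the log2 scale (edgeR adjusted p = 0.00146 and 0.002). The CCND1 call was lost without replicate 1. Of 56 mitosis genes, 3 rose and 3 fell, a share below that of all genes in each direction. PLK1, a mitotic kinase, averaged 85.0 ± 5.74 CPM at the high and 74.9 ± 5.11 CPM at the low concentrations (SD, n = 6 each), and its call was lost without replicate 1 or 2 and without the replicate term. CDKN1A, the cell cycle inhibitor p21, was not called, with 59.3 ± 3.96 against 63.0 ± 4.63 CPM (SD, n = 6 each, adjusted p = 0.387).

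In gluconeogenesis and glycogen metabolism 6 of 18 genes fell and 3 rose, against 7.67% and 6.50% of all genes. The counts were 2 and 1 without replicate 2, and 2 and 0 without the replicate term. G6PC, the last enzyme of glucose release, fell by 0.58 ± 0.079 (adjusted p = 5.95e-05), with 21.4, 26.7 and 28.2 CPM at the high and 33.4, 37 and 53.4 CPM at the low concentrations as lowest, median and highest value, without overlap. PPARGC1A, a coactivator of hepatic glucose production, rose by 0.18 ± 0.036 (adjusted p = 0.00222). Of 28 immediate early and growth factor genes, 3 rose and 7 fell, against 6.50% and 7.67% of all genes. Without the replicate term these counts were 2 and 0. EGR1, an immediate early transcription factor, rose by 0.43 ± 0.092 in 5 of 6 pairs (adjusted p = 0.00376), and DMSO, at 24.8 ± 4.97 CPM (SD, n = 3), was above both concentrations. Of 39 proteasome genes, 5 (12.8%) rose and 1 fell, with 1 higher without the replicate term, 3 without replicate 1 and 2 without replicate 2. Of 27 heat shock and chaperone genes, 2 (7.41%) rose and 3 (11.1%) fell, shares near those of all genes. Of the 1772 called genes, 1403 belonged to none of the lists.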
